A study of Homo sapiens with 23 samples.

Results

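The mitochondrial ribosome genes examined here were the 77 protein-coding genes, of 21658 genes in the expression table, whose NCBI Gene ID carries a symbol starting with MRPL (49 genes) or MRPS (28 genes). All 77 such symbols of the RefSeq gene table were present. RNA was sequenced from 4 human ovarian cancer cell lines, Kuramochi, OVSAHO, OV-90 and EFO-21, each as the parental line and as a form made resistant to prexasertib, an inhibitor of the checkpoint kinase CHK1, by raising the drug concentration stepwise over a long time. There were 3 libraries of separate cultures for each form, and 2 for parental OV-90, so 23 in all. The parental forms are the controls, and no group carries an engineered allele. Each line had 1 resistant form, so the libraries of a group are repeat cultures of 1 cell population. The p-values within a line and for differences between lines measure the spread between those cultures. Whether the resistant cells were in drug at harvest is not given in the sources used here. The question in each line was which of these genes differed between the resistant and the parental form.

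Mitochondria make the core subunits of the respiratory chain and ATP synthase on their own ribosome, which is separate from the ribosome of the cytosol. Its RNA comes from mitochondrial DNA, whereas all its proteins are encoded in the nucleus, made in the cytosol and imported. The large subunit joins amino acids and the small subunit reads the messenger RNA, and the proteins are a mix of descendants of bacterial ribosomal proteins and of proteins added during the evolution of mitochondria. The systematic names in the RefSeq table give this origin for 75 members, as u (shared by all ribosomes), b (shared with bacteria) or m (mitochondrial only). By these names 51 members belong to the large and 26 to the small subunit, with MRPS18A (mL66) and MRPS30 (mL65) placed in the large subunit in spite of their symbols. MRPS24 and MRPS28, which have no such name in the table, were counted in the small subunit by symbol.

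Values are log2 expression values per gene, quantile normalized over the 23 libraries by the authors, so they compare libraries for 1 gene and not 1 gene with another. The deposited table holds no read counts, so the depth behind each value is unknown. All 77 members were well above the low end of the table: the lowest value of any member in any library was at percentile 40.2 of that library, and the median over members and libraries was at percentile 86.7. Of the epithelial and ovarian markers, KRT8 and KRT18, keratins of simple epithelia, were between 8.67 and 12.45 in all libraries. PAX8, a transcription factor of Müllerian epithelium, was between 1.77 and 2.43 in the 5 OV-90 libraries and at least 8.42 in the other lines. WT1 was at most 2.09 in OV-90 and at most 1.21 in EFO-21. MUC16 was at most 1.37 in OV-90 and at most 2.77 in Kuramochi, and KRT7 was at most 4.34 in every line but OVSAHO. SOX17 was at most 5.38 in OV-90 and at least 11.255 in the other lines. EPCAM was between 12.14 and 12.45 in OV-90 but went from between 6.27 and 6.59 to between 2.48 and 2.85 in Kuramochi. Of 8 epithelial and ovarian carcinoma markers, 7 were called lower in resistant Kuramochi, 6 in OVSAHO, 2 in OV-90 and 5 in EFO-21. These are 87.5%, 75%, 25% and 62.5% (all genes: 23.3%, 16.2%, 17.9% and 23.4%), so the OV-90 share was near that of all genes. Of the 8 markers 1 each was called higher in OVSAHO and EFO-21 (12.5%, against 17.1% and 25% of all genes). Their summed level, as log2, went from between 13.65 and 13.83 to between 12.68 and 12.75 in Kuramochi, from between 13.19 and 13.29 to between 12.87 and 13.01 in OVSAHO, from between 13.54 and 13.60 to between 13.24 and 13.31 in OV-90, and from between 13.49 and 13.54 to between 13.47 and 13.49 in EFO-21. Of 7 blood and endothelial markers, HBB and CD3E were listed at 0 in all resistant Kuramochi libraries. HBB reached 6.76 in parental OV-90, and CD3E was between 4.68 and 5.88 in OV-90. CDH5, a cadherin of endothelium, was between 9.03 and 9.43 in EFO-21. CD68 was between 8.42 and 9.82 there and PECAM1 between 8.45 and 8.59. In Kuramochi CDH5 went from between 4.45 and 5.04 to between 7.48 and 7.71. The summed level of the 7, as log2, was at most 6.63 in parental and at least 8.31 in resistant Kuramochi. In EFO-21 it was at most 10.43 and at least 10.90. It fell in OVSAHO (from at least 7.67 to at most 6.65) and OV-90 (from at least 7.64 to at most 7.57). The part of these markers in the members' changes was not tested. Groups were compared with limma, with p-values adjusted by Benjamini-Hochberg over all 21658 genes, and a gene was called at an adjusted p under 0.05.

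Across the 4 lines the members were called lower in the resistant form more often than higher. In Kuramochi 25 of 77 members were called lower and 9 higher (all genes: 23.3% lower and 23.6% higher). In OVSAHO 30 were called lower and 5 higher (all genes: 16.2% and 17.1%). In OV-90 47 were called lower and 3 higher (all genes: 17.9% and 18.1%), and in EFO-21 41 were called lower and 9 higher (all genes: 23.4% and 25%). As shares of the members, 32.5%, 39.0%, 61.0% and 53.2% were called lower in the same order of lines, each above the share of all genes, and 11.7%, 6.49%, 3.9% and 11.7% were called higher, each below it. In a joint fit of the 23 libraries, which keeps a separate base level for each line, 33 members were lower and 1 was higher on average (all genes: 16.6% and 16.4%). The error of that fit holds differences between the lines in the change as well as the spread between cultures. Its p-values count the 23 libraries as separate, although they come from 4 lines. The changes were mostly small. The median log2 change of the members was -0.11 in Kuramochi, -0.15 in OVSAHO, -0.51 in OV-90 and -0.22 in EFO-21, against -0.02, 0.00, -0.06 and 0.01 over all genes, and 44, 59, 64 and 58 of the 77 changes were below 0. A change of at least 2-fold as well was reached by 3 lower members and 1 higher in Kuramochi, by 2 lower in OV-90, by 1 lower in EFO-21 and by none in OVSAHO (all genes: 10.6% lower and 11.8% higher in Kuramochi, 6.56% lower in OV-90, 7.15% lower in EFO-21). The 2-fold share of all genes in OVSAHO is not given here. In bulk RNA normalized to 1 distribution, fewer transcripts per cell and a smaller share of the total RNA cannot be told apart.

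**Figure D1:**
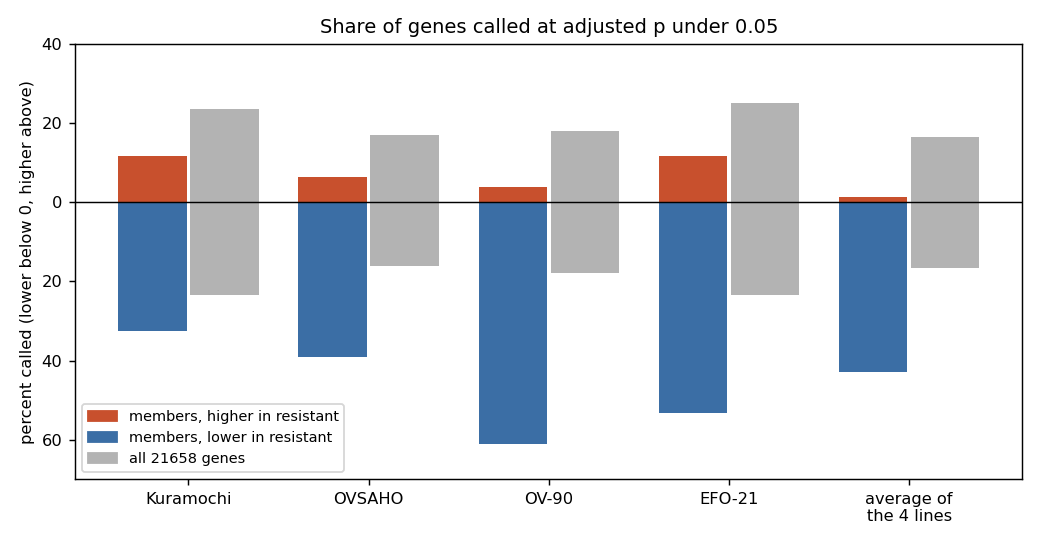
Percent of genes called at adjusted p under 0.05 (y axis, lower below 0 and higher above) in each line and in the average of the 4 lines (x axis), with the 77 members in colour and all 21658 genes in grey. The members are called lower in 32.5% to 61.0% of cases by line and higher in 3.9% to 11.7%, whereas the grey bars are near equal in both directions.

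The median over the members in each library shows where these differences sit. In EFO-21 it was 8.77, 8.77 and 8.80 in the parental and 8.38, 8.54 and 8.54 in the resistant libraries. In OVSAHO it was between 8.98 and 9.02 in the parental and between 8.87 and 8.89 in the resistant libraries. Both lines therefore had every resistant library below every parental library. In Kuramochi the parental medians were 8.37, 8.62 and 8.64 and the resistant ones 8.52, 8.42 and 8.50, so parental library 4, at 8.37, lay below all 3 resistant libraries and the groups overlapped. Without that library 39 members were called lower and 11 higher in Kuramochi. The share of all genes called in that setting is not given here. In OV-90 the parental medians were 9.39 and 9.06 and the resistant ones 8.77, 8.81 and 8.67. The 2 parental OV-90 libraries stood apart from each other, with a correlation over all genes of 0.952, where no pair of libraries within any other group was below 0.971. Library 2 was above library 3 in 64 of the 77 members, by a median of 0.31. Library 3 was also nearer to the resistant libraries (correlations of 0.945 to 0.949) than library 2 was (0.905 to 0.915). Both are labelled parental, and whether 1 of them is mixed or mislabelled was not tested, so each OV-90 change rests on that label.

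**Figure D2:**
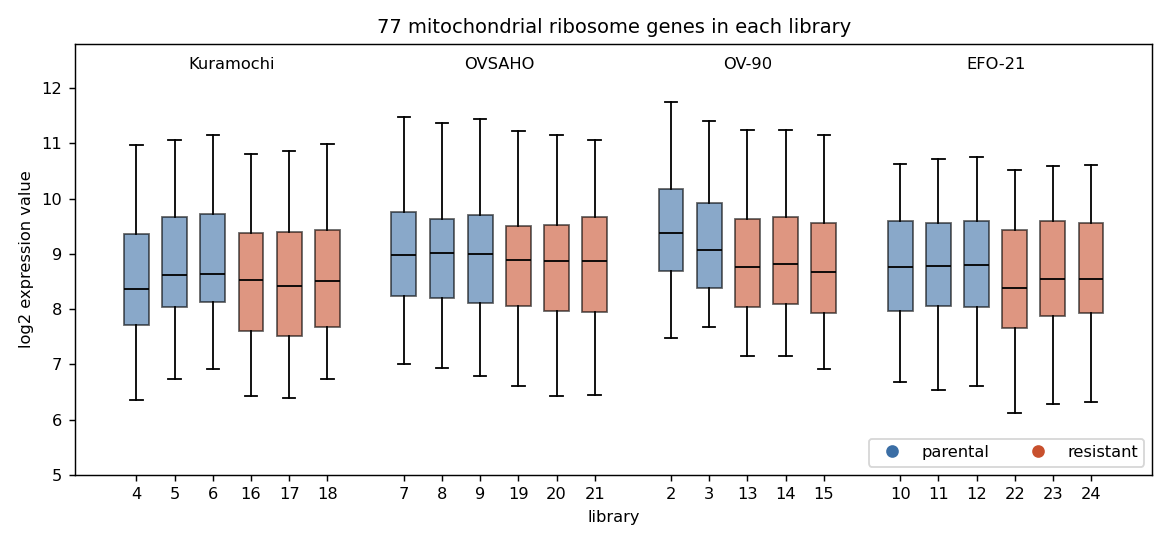
Log2 expression values of the 77 members (y axis) in each of the 23 libraries (x axis, numbered as in the table), as boxes of the interquartile range of the members with the median as a line and whiskers from the 5th to the 95th percentile. Parental libraries are blue and resistant ones orange; the OV-90 parental boxes are the highest of that line, with medians of 9.39 and 9.06 against 8.67 to 8.81.

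The OV-90 calls rested on the full set of 5 libraries. With any 1 of the 3 resistant libraries left out no member was called in either direction by limma, although 45 to 49 members were lower and 1 or 2 higher at an unadjusted p under 0.05 and the median change stayed between -0.46 and -0.55. Without parental library 2 the counts were 36 lower and 2 higher, with a median change of -0.36, and without library 3 they were 62 and 8, with a median of -0.67. In 1 fit of all 23 libraries, where the spread is shared by the 8 groups, 59 members were lower and 6 higher in OV-90. The shares of all genes called in these other settings are not given here. All 3 OV-90 resistant libraries lay below both parental ones in 59 members and above both in 9 (all genes: 37.1% and 32.0%).

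Genes of the cytosolic ribosome and of respiratory complex I were looked at beside the members in each library. The median over 77 cytosolic ribosomal protein genes was 11.01 and 10.68 in the parental and 10.44, 10.59 and 10.48 in the resistant OV-90 libraries, and in Kuramochi it was 10.23 in parental library 4, below the 3 resistant libraries (10.31 to 10.41), and 10.60 in libraries 5 and 6. The median over 36 complex I genes was 10.16 and 9.81 in the parental and 9.39 to 9.57 in the resistant OV-90 libraries. In Kuramochi it differed from the members in that library 4 lay above 2 of the 3 resistant libraries (8.95, 8.93 and 9.17). The median log2 change of the 77 cytosolic ribosomal protein genes was -0.07 in Kuramochi, -0.24 in OVSAHO, -0.54 in OV-90 and -0.29 in EFO-21. In these lines 24.7%, 70.1%, 63.6% and 68.8% of them were called lower (all genes: 23.3%, 16.2%, 17.9% and 23.4%). Of the complex I genes 7, 29, 24 and 20 were called lower in the same order of lines (19.4%, 80.6%, 66.7% and 55.6%), so in Kuramochi fewer than among all genes, with medians of -0.02, -0.24, -0.50 and -0.23. What these 3 groups of genes share in the libraries was not tested.

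By subunit, the small subunit had 8, 11, 19 and 13 of 26 members called lower in Kuramochi, OVSAHO, OV-90 and EFO-21 (30.8%, 42.3%, 73.1% and 50%), and 5, 1, 1 and 3 called higher. The large subunit had 17, 19, 28 and 28 of 51 called lower (33.3%, 37.3%, 54.9% and 54.9%) and 4, 4, 2 and 6 higher. Over all genes 23.3%, 16.2%, 17.9% and 23.4% were called lower, so the shares in Kuramochi stood nearest to it. Median log2 changes were -0.12 against -0.11 in Kuramochi, -0.21 against -0.10 in OVSAHO, -0.55 against -0.49 in OV-90 and -0.19 against -0.23 in EFO-21, so neither subunit was the lower one in every line. By origin, the 26 proteins shared by all ribosomes had a median average change of -0.23, the 18 shared with bacteria -0.18 and the 31 of mitochondria only -0.16. All 3 classes had more members called lower than higher in every line, with 25.8% of the mitochondrial and 26.9% of the universal class lower in Kuramochi, close to the 23.3% of all genes, and for example 5 of 18 lower and 2 higher for the bacterial class in OVSAHO and 17 of 26 lower and 3 higher for the universal class in EFO-21.

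**Figure D3:**
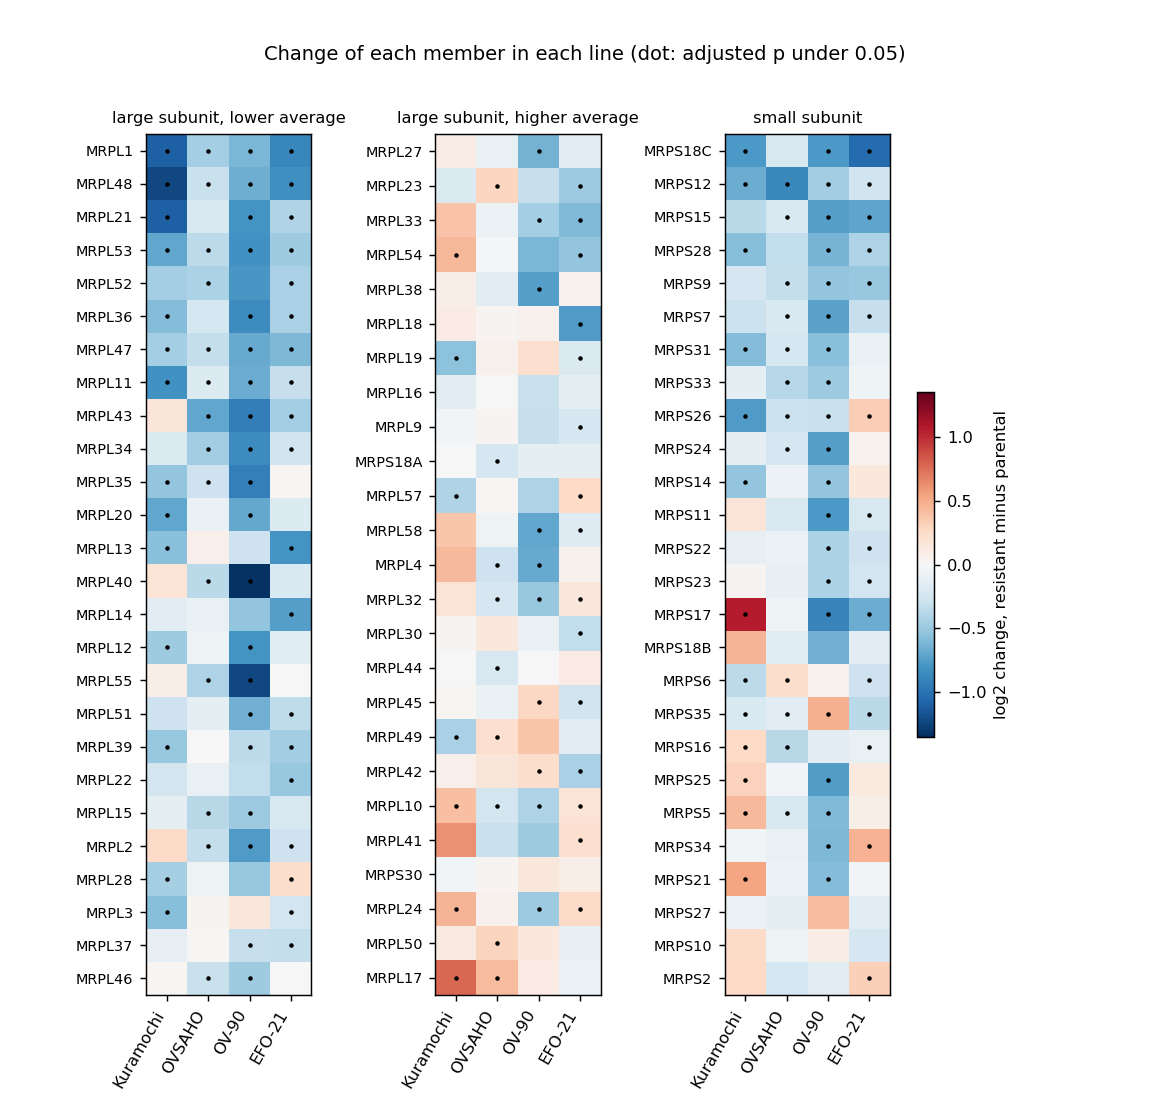
Log2 change, resistant minus parental, of each of the 77 members (rows, ordered by the average change, by subunit) in the 4 lines (columns), blue for lower and red for higher, with a dot where the adjusted p was under 0.05. The OV-90 column is the bluest, with 47 lower and 3 higher calls, while MRPS17 is red in Kuramochi and blue in OV-90 and EFO-21.

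The 4 lines did not lower the same members to the same degree. Of the 77, 6 were called lower in all 4 lines (7.79%, against 0.706% of all genes), 21 in at least 3 lines (27.3%, against 5.25%), and none was called higher in at least 3 lines (all genes: 5.63%). The other extreme was 5 members called in no line, MRPL16, MRPS10, MRPS18B, MRPS27 and MRPS30. Across the 77 members the changes of 2 lines had a Pearson correlation of 0.54 for OVSAHO and OV-90 and 0.32 for Kuramochi and EFO-21, and between 0.04 and 0.19 for the other 4 pairs, against 0.25, 0.06 and 0.05 to 0.14 over all genes. Genes are not independent replicates, so these are descriptions.

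The members called lower in all 4 lines were MRPL1, MRPL48, MRPL53, MRPS12, MRPL47 and MRPL11. The number was 0 with any 1 OV-90 resistant library left out, since no member was then called in OV-90, and 10 without Kuramochi parental library 4. MRPL1 (uL1m) is the protein of the L1 stalk, through which spent transfer RNA leaves the ribosome. It was 7.72, 8.04 and 8.13 in parental Kuramochi and 6.75, 6.81 and 7.02 in resistant Kuramochi. In OVSAHO it was 8.23, 8.06 and 8.04 against 7.70, 7.56 and 7.68, in OV-90 8.50 and 8.15 against 7.77, 7.75 and 7.60, and in EFO-21 8.36, 8.29 and 8.33 against 7.26, 7.56 and 7.52. No resistant library reached the lowest parental library of its line. The log2 changes were -1.10 ± 0.14 (SE, adjusted p = 0.00105) in Kuramochi, -0.46 ± 0.07 (0.00493) in OVSAHO, -0.62 ± 0.14 (0.0304) in OV-90 and -0.88 ± 0.08 (0.000533) in EFO-21. Its average change of -0.77 ± 0.08 was the lowest of all members (adjusted p = 1.67e-06). The gene lies on chromosome 4, at 78783984 to 78873939 of GRCh37, on the plus strand.

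MRPL48 (mL48), found only in mitochondrial ribosomes, had the next lowest average change, -0.76 ± 0.10 (adjusted p = 1.39e-05). It was 6.95, 7.38 and 7.26 in parental and 5.89, 5.89 and 6.12 in resistant Kuramochi, a change of -1.23 ± 0.14 (adjusted p = 0.000846). In EFO-21 it was 6.49, 6.42 and 6.49 against 5.49, 5.68 and 5.74, a change of -0.83 ± 0.09 (adjusted p = 0.000881). The groups were apart in both lines, and smaller falls of -0.31 in OVSAHO and -0.65 in OV-90 were called as well. A pseudogene of it, MRPL48P1, has its own row in the table, so reads that match both could be divided between them.

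MRPS12 (uS12m) sits at the decoding centre of the small subunit, where codon and anticodon are checked. In OVSAHO it was 9.88, 9.64 and 9.70 in the parental and 8.87 in each of the 3 resistant libraries, a log2 change of -0.87 ± 0.07 (adjusted p = 0.000531) and the largest fall among the members there. In Kuramochi it was 8.90, 9.05 and 9.17 against 8.30, 8.40 and 8.41, a change of -0.67 ± 0.08. The falls in OV-90 (-0.46 ± 0.12) and EFO-21 (-0.27 ± 0.06) were smaller. The change in OVSAHO was below the mean of the other 3 lines by 0.40 on the log2 scale (adjusted p = 0.00462), so its size differed between lines.

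The other 3 were MRPL53 (mL53), a mitochondria-only protein of the large subunit, MRPL47 (uL29m), a protein near the exit of the peptide tunnel, and MRPL11 (uL11m), a protein of the stalk base that translation factors contact. MRPL53 fell by 0.70, 0.35, 0.82 and 0.48 on the log2 scale in Kuramochi, OVSAHO, OV-90 and EFO-21. MRPL47 fell by 0.45, 0.33, 0.68 and 0.60, and its change did not differ from that of the other lines in any line (adjusted p between 0.152 and 0.613 in limma). MRPL11 fell by 0.82, 0.19, 0.67 and 0.31, with adjusted p between 0.00724 and 0.0314. In all 3 genes every resistant library was below every parental library of its line.

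**Figure D4:**
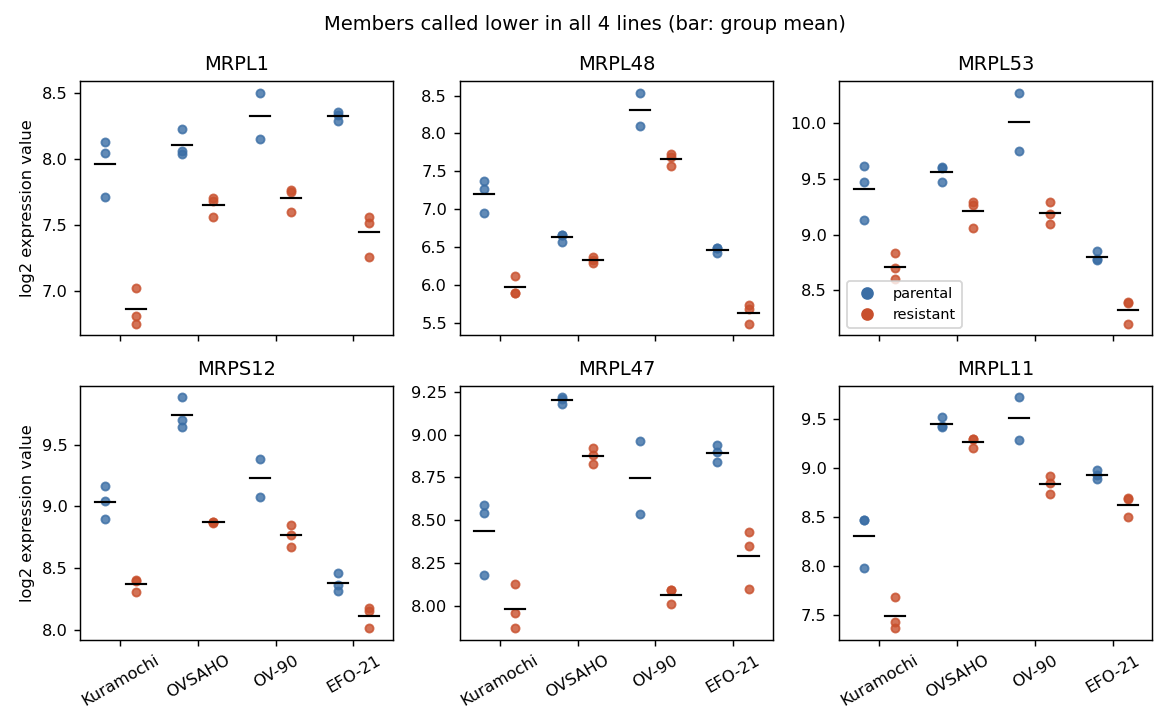
Log2 expression values (y axis) of the 6 members called lower in all 4 lines, by line (x axis), with 1 point per library, blue for parental and orange for resistant, and a bar at the group mean. In each panel and line all resistant points lie below all parental points, with the widest gap of means for MRPL48 in Kuramochi, -1.23.

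The stretches just before the start sites of these genes are shown because members that fell together in every line need not carry the same letters there. The sequences are RefSeq promoter windows of GRCh38.p14, of which the 250 bases before the start are printed, from 5′ to 3′ on the gene's strand. Capitals mark CCGGAAG or its reverse complement CTTCCGG, the core that ETS factors such as GABP bind, or GCGCATGC or its reverse complement GCATGCGC, letters bound by the factor NRF1. MRPL17, the only member higher on average, is shown for contrast.
MRPL48, chr11:73787624-73787873, plus strand: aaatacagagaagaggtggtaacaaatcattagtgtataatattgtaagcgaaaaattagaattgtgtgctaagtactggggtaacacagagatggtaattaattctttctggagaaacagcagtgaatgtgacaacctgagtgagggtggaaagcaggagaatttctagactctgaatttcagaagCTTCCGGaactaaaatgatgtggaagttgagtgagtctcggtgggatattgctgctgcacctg
MRPL53, chr2:74472681-74472930, minus strand: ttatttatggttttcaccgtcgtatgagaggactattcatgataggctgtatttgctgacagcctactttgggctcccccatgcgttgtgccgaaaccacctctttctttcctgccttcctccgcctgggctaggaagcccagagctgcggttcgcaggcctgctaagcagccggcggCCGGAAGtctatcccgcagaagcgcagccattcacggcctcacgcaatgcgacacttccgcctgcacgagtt
MRPL47, chr3:179604639-179604888, minus strand: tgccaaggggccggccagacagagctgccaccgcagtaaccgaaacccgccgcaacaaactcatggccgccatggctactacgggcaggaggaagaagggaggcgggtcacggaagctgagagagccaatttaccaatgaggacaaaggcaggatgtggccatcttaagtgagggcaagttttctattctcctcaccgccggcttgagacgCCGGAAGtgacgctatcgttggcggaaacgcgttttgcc
MRPL1, chr4:77862580-77862829, plus strand: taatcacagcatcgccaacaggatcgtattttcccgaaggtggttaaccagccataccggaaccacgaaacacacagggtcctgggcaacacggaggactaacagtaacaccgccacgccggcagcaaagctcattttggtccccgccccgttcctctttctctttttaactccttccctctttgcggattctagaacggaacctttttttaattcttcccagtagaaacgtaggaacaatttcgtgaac
MRPL11, chr11:66438849-66439098, minus strand: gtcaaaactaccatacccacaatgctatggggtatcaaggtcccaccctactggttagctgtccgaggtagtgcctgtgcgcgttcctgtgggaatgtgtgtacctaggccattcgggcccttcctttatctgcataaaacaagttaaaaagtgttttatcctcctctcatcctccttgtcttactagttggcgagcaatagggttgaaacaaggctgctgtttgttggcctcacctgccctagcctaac
MRPL17, chr11:6683341-6683590, minus strand: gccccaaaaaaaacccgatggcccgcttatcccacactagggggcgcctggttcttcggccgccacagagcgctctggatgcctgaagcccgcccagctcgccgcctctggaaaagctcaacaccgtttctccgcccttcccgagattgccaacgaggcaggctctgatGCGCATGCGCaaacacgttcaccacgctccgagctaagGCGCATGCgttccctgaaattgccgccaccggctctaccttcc
MRPL48, MRPL53 and MRPL47 hold the ETS letters in this stretch and MRPL1 and MRPL11 do not. In MRPS12 a match starts 5 bases before the start site and runs over it. MRPL17 holds 3 matches to the NRF1 letters, of which 2 on opposite strands overlap. Over the whole windows, with 250 bases before and 50 after the start and the first listed window of each gene, CCGGAAG on either strand was in 29 of the 69 members with a window (42.0%), against 10.7% of all 27305 promoters and 16.2% of the 14340 promoters of genes in the expression table. AAGATGGCG on either strand, letters bound by YY1, was in 13 of 69 (18.8%, against 1.85% and 3.12%), GCGCATGC in 6 (8.7%, against 3.27% and 4.85%) and CACGTG, the E-box bound by MYC, in 6 (8.7%, against 7.43% and 9.47%). Of the 17 members with a window that were called lower in at least 3 lines, 8 held CCGGAAG (47.1%) and 1 held AAGATGGCG (5.88%). GCGCATGC was in 1 of the 17 (5.88%) and CACGTG in 2 (11.8%). MRPS18C, called lower in 3 lines, holds the NRF1 letters, so they are not particular to MRPL17, the member higher on average. A match is a description of letters and not a bound site.

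In Kuramochi, after MRPL48 and MRPL1, the largest falls were in MRPL21 (bL21m), a large subunit protein shared with bacteria, and MRPL11. MRPL21 was 7.65, 8.20 and 8.22 in the parental and 6.89, 6.73 and 7.15 in the resistant libraries, a log2 change of -1.10 ± 0.19 (adjusted p = 0.00421). The largest rise among the 77 members and 4 lines was that of MRPS17 (uS17m), a small subunit protein that binds ribosomal RNA early in assembly, at 7.07, 7.23 and 7.51 against 8.35, 8.22 and 8.43. The groups were apart, and the change was 1.06 ± 0.13 (adjusted p = 0.000928). MRPL17 (bL17m) was 8.92, 9.37 and 9.45 against 9.90, 10.04 and 10.11, a rise of 0.77 ± 0.15. MRPS21 (bS21m) rose by 0.53 ± 0.09 and MRPL24 (uL24m) by 0.46 ± 0.12, and the resistant libraries were above the parental ones in both. In 26 members all resistant libraries were below all parental ones and in 16 above (all genes: 30.5% and 28.7%).

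In OVSAHO the changes were the smallest, between -0.87 and 0.42. After MRPS12, MRPL43 (mL43) fell most, from 7.43, 7.30 and 7.33 to 6.86, 6.61 and 6.50, by 0.70 on the log2 scale (adjusted p = 0.00447). MRPL34 (bL34m), a short protein shared with bacteria, was 8.84, 8.91 and 9.03 against 8.55, 8.48 and 8.34, a change of -0.47 ± 0.07. The rises were led by MRPL17, at 10.04, 9.96 and 10.03 against 10.48, 10.40 and 10.43 (0.42 ± 0.04, adjusted p = 0.000847). MRPL50 (mL50) rose by 0.30, MRPL23 (uL23m), at the exit of the peptide tunnel, by 0.29, and MRPS6 (bS6m) by 0.24. In 37 members all resistant libraries were below all parental ones and in 8 above (all genes: 23.7% and 24.6%). The number of members called lower was between 18 and 31 with 1 library left out, and 16 with all 23 libraries in 1 fit. MRPL17 was the only member called higher on average over the lines (0.32 ± 0.09, adjusted p = 0.0135), and its changes in OV-90 (0.11 ± 0.16) and EFO-21 (-0.07 ± 0.07) were not called.

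In OV-90 the largest fall among the 77 members and 4 lines was that of MRPL40 (mL40), a mitochondria-only protein encoded on chromosome 22, at 8.54 and 8.05 in the parental and 7.08, 7.02 and 6.77 in the resistant libraries. The change was -1.34 ± 0.19 (adjusted p = 0.0156), and both parental libraries were above all resistant ones. MRPL55 (bL31m) was 7.48 and 6.59 against 5.78, 5.93 and 5.71, a change of -1.23 ± 0.29 (adjusted p = 0.0349), with the 2 parental libraries far apart. MRPL43 changed by -0.93 ± 0.22 and MRPL35 (bL35m) by -0.92 ± 0.11. The only 3 members called higher were MRPS35 (mS35), at 8.95 and 9.25 against 9.60, 9.58 and 9.57 (0.48 ± 0.10), MRPL45 (mL45), which lies where the ribosome meets the inner membrane, at 8.23 and 8.23 against 8.54, 8.55 and 8.44 (0.28 ± 0.07), and MRPL42 (mL42), at 9.40 and 9.46 against 9.70, 9.60 and 9.71 (0.24 ± 0.06). All 3 were called lower in EFO-21. None of the 3 rises was called without the mean-variance trend (adjusted p between 0.0503 and 0.122), and that of MRPL42 (adjusted p = 0.0462) was not called with weakly expressed genes left out either (0.0563).

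In EFO-21 the largest fall was that of MRPS18C (bS18m), at 7.55, 7.50 and 7.60 against 6.34, 6.56 and 6.64, a change of -1.04 ± 0.09 (adjusted p = 0.000316). MRPL1 and MRPL48 followed, and then MRPL13 (uL13m), at 9.28, 9.29 and 9.21 against 8.25, 8.54 and 8.58 (-0.80 ± 0.09). Among the rises, MRPS34 (mS34) was 9.02, 9.04 and 9.03 against 9.49, 9.56 and 9.44, a rise of 0.47 ± 0.04 (adjusted p = 0.000283). MRPS26 (mS26) rose by 0.34 ± 0.04, MRPS2 (uS2m), a protein on the back of the small subunit, by 0.32 ± 0.03 and MRPL57 (mL63) by 0.27 ± 0.03. In 48 members the resistant libraries were all lower and in 11 all higher (all genes: 29.3% and 30.4%).

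MRPS18A, MRPS18B and MRPS18C descend from 1 bacterial protein and take different places in the human mitochondrial ribosome. MRPS18C, which keeps the bacterial place, was called lower in Kuramochi (-0.78 ± 0.17), OV-90 (-0.78 ± 0.13) and EFO-21, and was -0.21 ± 0.09 in OVSAHO (adjusted p = 0.11). MRPS18A, in the large subunit, was called lower in OVSAHO alone (-0.23 ± 0.05), with changes of 0.01, -0.13 and -0.12 in Kuramochi, OV-90 and EFO-21. MRPS18B was called in no line, with changes between -0.65 ± 0.27 in OV-90 and 0.46 ± 0.19 in Kuramochi.

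The size of the change was then compared between lines, as the change in 1 line minus the mean change of the other 3, in 1 fit of all libraries. In Kuramochi 15 members were below and 28 above the other lines (all genes: 27.3% and 26.8%), in OVSAHO 5 and 20 (15.0% and 15.4%), in OV-90 36 and 8 (23.6% and 26.7%) and in EFO-21 17 and 15 (21.8% and 20.3%). The OV-90 count of 36 was 16 without parental library 2. MRPS17 differed most, by 1.61 ± 0.15 in Kuramochi (adjusted p = 4.36e-08) and by -1.01 ± 0.16 in OV-90, where it was 8.81 and 8.26 against 7.73, 7.64 and 7.51. MRPL40 differed by -1.21 ± 0.18 and MRPL55 by -1.12 ± 0.24 in OV-90. MRPL18 (uL18m) differed by -0.84 ± 0.07 in EFO-21 (adjusted p = 2e-08): it was 10.81, 10.79 and 10.71 against 9.92, 10.06 and 10.02 there, and its changes in the other lines lay between 0.03 and 0.11 and were not called. MRPS26, lower in 3 lines and higher in EFO-21, differed there by 0.79 ± 0.09.

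Each member was also set beside its genome neighbours, taken as the median log2 change of all other genes of the table within 2 Mb on each side, members left out. Across the 77 members the Pearson correlation of the own change with this median was 0.70 in Kuramochi, 0.50 in EFO-21, 0.36 in OV-90 and 0.30 in OVSAHO. MRPS17, on chromosome 7 at 56019570 to 56024193 of GRCh37, rose by 1.06 in Kuramochi where its neighbours had a median of 1.04, with 1 of 19 below 0. MRPL1 and MRPS18C, both on chromosome 4, had neighbour medians of -0.74 (19 of 20 below 0) and -0.76 (22 of 23) in Kuramochi, beside own changes of -1.10 and -0.78. MRPL48, on chromosome 11, had -0.69 there. In EFO-21 MRPL18, on chromosome 6, changed by -0.77 beside neighbours at -0.93 (26 of 30 below 0), and MRPS34, on chromosome 16, by 0.47 beside 0.54 (26 of 163 below 0). In other members the own change and the neighbours differed more. MRPL47 changed by -0.68 in OV-90 where its 18 neighbours had a median of 0.63, and MRPL48 by -0.83 in EFO-21 beside 0.12. MRPS12 changed by -0.87 in OVSAHO, where its neighbours were lower too, with a median of -0.23. Over all members, the own change minus the neighbour median had a median of -0.01 in Kuramochi (39 of 77 below 0), -0.15 in OVSAHO (56), -0.41 in OV-90 (67) and -0.28 in EFO-21 (64). Gene copy number was not analysed here.

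**Figure D5:**
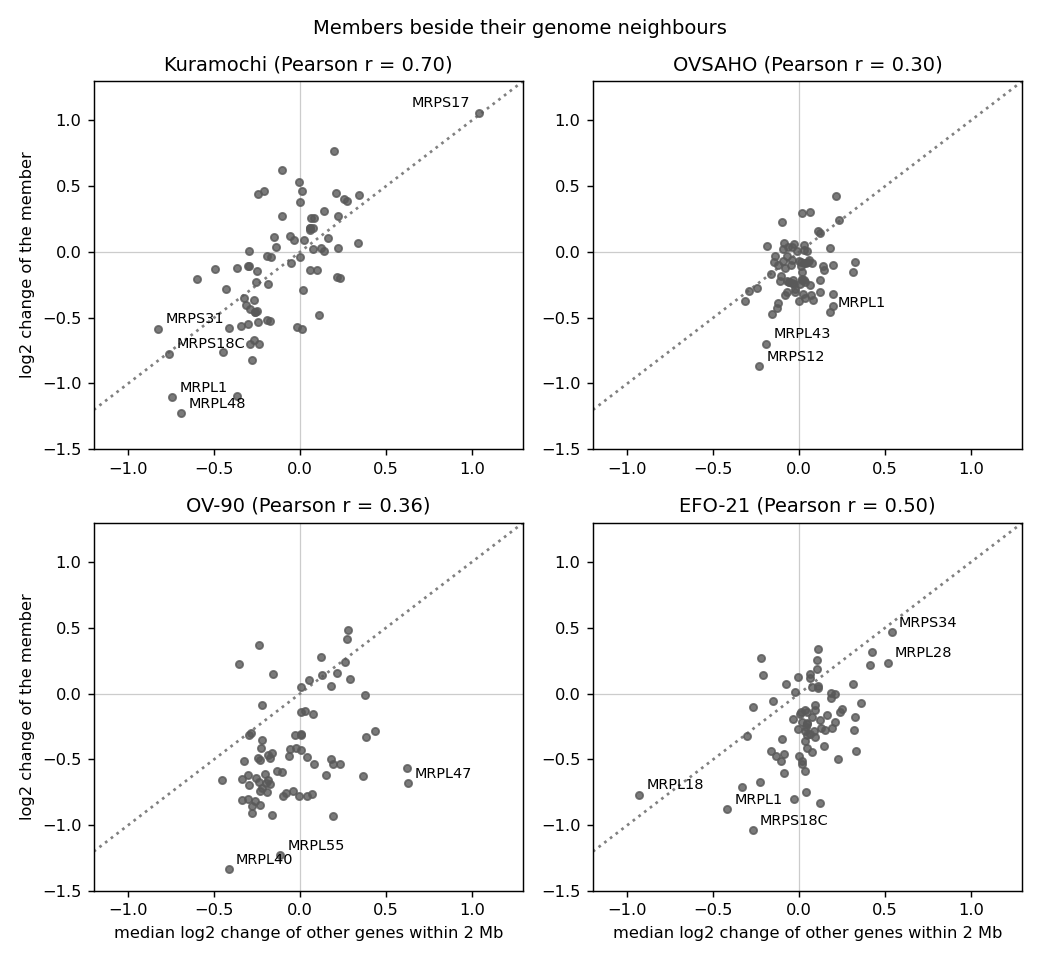
Log2 change of each member (y axis) against the median log2 change of the other genes within 2 Mb (x axis) in each line, with 1 point per member and the dotted line at equal values. Points follow the line in Kuramochi (Pearson r = 0.70), with MRPS17 at its upper end, while in OV-90 67 of 77 points lie below it.

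Several members share a start region with a gene on the other strand. With start sites at most 1 kb apart head to head, 17 members had a protein-coding partner that is no member, and MRPL46 and MRPS11 were partners of each other. MRPS12 and SARS2, the seryl-tRNA synthetase of mitochondria, changed by -0.67 and -0.95 in Kuramochi, -0.87 and -0.55 in OVSAHO, and -0.46 and -0.45 in OV-90. In EFO-21 MRPS12 was called lower (-0.27) and SARS2 was not (-0.0044, adjusted p = 0.954). MRPL36 (bL36m) and NDUFS6, a complex I subunit, changed by -0.59 and -0.61 in Kuramochi, -0.24 and -0.39 in OVSAHO, -0.85 and -1.07 in OV-90, and -0.43 and -0.23 in EFO-21. MRPL21 and its partner IGHMBP2, a helicase, were unlike, at -1.10 and -0.20 in Kuramochi, -0.22 and 0.11 in OVSAHO, -0.81 and 0.05 in OV-90, and -0.40 and 0.17 in EFO-21. Over the 17 pairs the correlation of member and partner was 0.67 in Kuramochi, 0.53 in OVSAHO, 0.42 in OV-90 and 0.41 in EFO-21.

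Other parts of the mitochondrial translation machinery were described by lists. Of 5 mitoribosomal proteins with other names, 1, 2, 3 and 1 were called lower in Kuramochi, OVSAHO, OV-90 and EFO-21 (20%, 40%, 60% and 20%), and 1 higher in EFO-21. The lower shares in Kuramochi and EFO-21 were below those of all genes (23.3% and 23.4%). In OVSAHO and OV-90 they were above (all genes: 16.2% and 17.9%). CHCHD1 fell in OVSAHO (-0.54), OV-90 (-0.68) and EFO-21 (-0.59) and was 0.01 in Kuramochi (adjusted p = 0.966). Of 29 assembly and ribosomal RNA modification factors, 6, 9, 11 and 4 were called lower (all genes: 23.3%, 16.2%, 17.9% and 23.4%) and 7, 1, 2 and 4 higher. The lower share was below that of all genes in Kuramochi (20.7%) and EFO-21 (13.8%), and lower calls did not outnumber higher ones in Kuramochi and EFO-21. The 12S rRNA methyltransferase TFB1M fell by 1.40 on the log2 scale in EFO-21, and in OVSAHO by 0.35, and RCC1L, an assembly factor, fell in 3 lines (-0.29, -0.20 and -0.48 in Kuramochi, OVSAHO and OV-90). Of 17 translation factors and activators, 5, 6, 8 and 7 were called lower (29.4%, 35.3%, 47.1% and 41.2%) and 2, 1, 1 and 2 higher. SLIRP, which with LRPPRC stabilizes mitochondrial messenger RNA, fell in all 4 lines (-0.56, -0.31, -0.84 and -0.74), while LRPPRC fell in Kuramochi (-0.57) and rose in OVSAHO (0.52) and EFO-21 (0.23).

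Of 20 mitochondrial aminoacyl-tRNA synthetases and amidotransferase subunits, which charge the transfer RNAs, 7, 7, 4 and 5 were called lower (35%, 35%, 20% and 25%, against 23.3%, 16.2%, 17.9% and 23.4% of all genes) and 1, 1, 2 and 4 higher, so the shares in OV-90 and EFO-21 were near those of all genes. CARS2 fell by 1.94 on the log2 scale in Kuramochi. Of 12 genes of mitochondrial DNA maintenance and transcription, 2, 4, 2 and 6 were called lower (16.7%, 33.3%, 16.7% and 50%) and 3, 1, 1 and 1 higher, with Kuramochi and OV-90 below the shares of all genes. SSBP1, the mitochondrial single-strand DNA binding protein, fell in all 4 lines (-0.73, -0.29, -0.36 and -0.60), and POLG, the polymerase, rose in Kuramochi, OVSAHO and EFO-21 (0.34, 0.29 and 0.27). Of 9 regulators, 2, 2, 0 and 1 were called lower (22.2%, 22.2%, 0% and 11.1%), above the share of all genes in OVSAHO alone. Called higher were 1, 3, 3 and 3 (11.1%, 33.3%, 33.3% and 33.3%, against 23.6%, 17.1%, 18.1% and 25% of all genes). The higher share of the regulators was thus below that of all genes in Kuramochi and above it in the other lines. In a list of 9 genes 1 call makes 11.1%, so these shares are coarse. The largest change was that of GABPA, the ETS-domain subunit of GABP, which rose by 1.38 ± 0.16 in OV-90 (adjusted p = 0.0122) and was -0.16, 0.04 and -0.14 in Kuramochi, OVSAHO and EFO-21. MYC, an activator of ribosome genes, was called higher in all 4 lines (0.39, 0.30, 0.80 and 0.55) and YY1 in OVSAHO, OV-90 and EFO-21 (0.31, 1.04 and 0.40). ESRRA, a nuclear receptor of mitochondrial genes, fell in Kuramochi, OVSAHO and EFO-21 (-0.62, -0.42 and -0.27), and NRF1 fell in Kuramochi (-0.34). The coactivator PPARGC1A rose in OVSAHO (0.53, adjusted p = 0.0452), and PPRC1, of the same family, fell in OVSAHO (-0.19) and rose in EFO-21 (0.19). The transcripts encoded in mitochondrial DNA were not analysed here.

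The number of exon features behind a member's value was between 3 and 47. Members with 20 or more had lower medians than members with under 10 in each line (-0.15 against 0.01 in Kuramochi, -0.21 against -0.12 in OVSAHO, -0.65 against -0.49 in OV-90 and -0.32 against -0.10 in EFO-21). The 30 members with 10 to 19 had medians of -0.12, -0.09, -0.48 and -0.20 in the same order. In OVSAHO and OV-90 these lay above both ends, so the medians did not fall steadily with exon number there. Over the other genes with a mean value above the median the medians were -0.02 against -0.05, 0.02 against 0.01, 0.13 against -0.13 and 0.02 against -0.02. The part of exon number in the members' changes was not tested.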

How the data were processed

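RNA was measured by stranded mRNA sequencing in 23 libraries of 4 ovarian cancer cell lines, grouped by the labels into parental and resistant forms of each line. According to the methods, the authors aligned reads to GRCh37, left out weakly covered exons, derived 1 value per gene from its exons by a robust linear model and quantile normalized the libraries. The deposited values are on the log2 scale. No counts were used, so depth is unknown and no interval based on reads can be given. All 77 members have a robust-linear-model value, from a median of 14 exon features. Columns of other samples numbered 0. A further 12 rows with these symbols (8 pseudogenes and 4 long non-coding RNAs) were left out, and reads shared with pseudogenes could affect their parents.

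The deposited log2 values were tested in limma 3.58.1 (R 4.3.3) with a mean-variance trend, two-sided, per line, over all 23 libraries with the line as a block, and with 8 group means for differences between lines. P-values were adjusted by Benjamini-Hochberg over 21658 genes. The fits were also run on simulated libraries with independent errors, the same spread in all groups and the same change in every line. Unequal spread between groups was not covered, and the outcome is not given here. Gene names came from RefSeq (20745 genes, 95.8%) and positions from GENCODE for GRCh37 (19359 genes). RefSeq promoter windows (GRCh38.p14) were matched for 69 members.

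Members and gene lists were chosen with earlier results of these data known. Named genes were, per line, the 4 largest falls and rises among called members whose groups did not overlap, the members called one way in all 4 lines, the 4 largest average changes called in each direction, per line the 3 called members that differed most from the other lines, members below the 25th percentile of gene means (there were none), and MRPS18A, MRPS18B and MRPS18C. Genes named for their partners, for the neighbourhood or as called in no line were chosen after their values were seen. The alternatives were no trend, a filter on weak genes, 2 recentrings, robust-linear-model genes only, a 2-fold rule, 1 fit of all libraries, other windows and each library left out. The values of 1 listed gene are not reported here.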

Additional observations from a re-analysis of the deposited data

Results flagged for a closer look

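In 144 member and line pairs the change in 1 line differed from the mean change of the other 3 lines by limma's test of that difference, adjusted over all genes. Such calls were common over all genes too. Members below and above were 19.5% and 36.4% in Kuramochi (all genes: 27.3% and 26.8%) and 6.49% and 26.0% in OVSAHO (15.0% and 15.4%). They were 46.8% and 10.4% in OV-90 (23.6% and 26.7%) and 22.1% and 19.5% in EFO-21 (21.8% and 20.3%). The 3 that differed most in each line, 12 in all, are given here. In Kuramochi these were MRPS17 (1.61 on the log2 scale, adjusted p = 4.36e-08), MRPL43 (0.86, adjusted p = 0.00283) and MRPL54 (0.84, adjusted p = 0.000121). MRPL43 was 5.86, 6.71 and 6.78 in parental and 6.51, 6.61 and 6.73 in resistant Kuramochi, so its groups overlapped there while it was called lower in the other 3 lines, and without parental library 4 its difference from the other lines was 0.57. MRPL54 (mL54) was 9.90, 10.38 and 10.38 against 10.66, 10.59 and 10.75, higher in all 3 resistant libraries. In OVSAHO they were MRPS18C (0.65, adjusted p = 0.00213), MRPL23 (0.63, adjusted p = 0.0129) and MRPL13 (0.62, adjusted p = 0.000178), of which MRPL23 alone was called higher in OVSAHO itself. In OV-90 they were MRPL40 (-1.21, adjusted p = 4.17e-05), MRPL55 (-1.12, adjusted p = 0.001) and MRPS17 (-1.01, adjusted p = 5.75e-05). In EFO-21 they were MRPL18 (-0.84, adjusted p = 2e-08), MRPS26 (0.79, adjusted p = 1.48e-06) and MRPS34 (0.72, adjusted p = 0.000219).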

How the results depend on the processing

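Among the alternatives listed above no named member with a called change changed direction. No paired analysis was possible because the columns of the table carry no replicate number that the labels share. The rule of at least 2-fold as well left 3 lower and 1 higher members in Kuramochi (3.9% and 1.3%, against 10.6% and 11.8% of all genes). It left 2 lower in OV-90 (2.6% against 6.56%) and 1 lower in EFO-21 (1.3% against 7.15%), and 0 higher in both. In OVSAHO and on average it left 0 and 0. Of the differences between lines it left 0 below and 1 above in Kuramochi, 3 and 0 in OV-90 and none in OVSAHO and EFO-21. The 2-fold shares of all genes for OVSAHO, the average and these differences are not given here. With all 23 libraries in 1 fit the counts were 16 higher in Kuramochi, 16 lower and 3 higher in OVSAHO and 6 higher in OV-90. The mean of the 4 changes in 1 fit gave 51 lower and 3 higher. Without the mean-variance trend 0 members were higher in OV-90 and 3 were lower in all 4 lines.

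With 1 library left out, the members lower and higher ranged over 17 to 39 and 4 to 11 in Kuramochi, 18 to 31 and 4 to 6 in OVSAHO, 0 to 62 and 0 to 8 in OV-90, 33 to 42 and 7 to 11 in EFO-21, and 31 to 42 and 1 to 2 on average. Those lower in all 4 lines ranged over 0 to 10 and in at least 3 lines over 7 to 28, counts that were chosen after seeing the data. Members below and above the other lines ranged over 11 to 17 and 21 to 30 in Kuramochi, 5 to 7 and 13 to 29 in OVSAHO, 16 to 49 and 6 to 10 in OV-90, and 10 to 18 and 11 to 24 in EFO-21. The counts that moved by over 1.5 times were 39 lower without Kuramochi library 4, 4 and 5 higher without Kuramochi libraries 16 and 18, 19 and 18 lower without OVSAHO libraries 7 and 20, 0 in either direction without OV-90 libraries 13, 14 or 15, 8 higher without OV-90 library 3, and 2 higher on average without EFO-21 library 22. For the differences they were 13 above in OVSAHO without library 19, 16 below in OV-90 without library 2, 10 below in EFO-21 without library 22, and 23 and 24 above in EFO-21 without OV-90 library 3 and Kuramochi library 4. Of those lower in several lines, 0 in all 4 and 7 in at least 3 were left without OV-90 library 13, 14 or 15, and 10 in all 4 without Kuramochi library 4. The shares of all genes called with 1 library left out or in 1 fit are not given here. The causes were not tested. Both recentrings kept every member count within 1.5 times its value. The correlation with the neighbour median was between 0.25 and 0.73 for the windows of 1 and 5 Mb. Without read counts, limits set by depth could not be given.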
